A study of Mus musculus with 3 samples.

Results

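Resting double-positive thymocytes, the small non-dividing cells that carry both coreceptors of the T-cell receptor (TCR), were examined in organoid reaggregate fetal thymic organ cultures (ORFTOC) and in fetal thymic organ cultures (FTOC). The cells were chosen by measured values. A barcode needed at least 600 detected genes, 0.4 to 10% mitochondrial reads, and at least 80% of 10 or more hashtag counts from 1 pool. It also needed at least 1 unique molecular identifier (UMI, a count of captured RNA molecules) of Rag1, at least 1 of Cd8a or Cd8b1, and none of Mki67, Top2a, Cdk1 or Epcam. This left 1824 cells of 9349 assigned to a pool, with 659 from ORFTOC and 1165 from FTOC. They are called members below.

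Both pools were collected on day 13 of culture, with thymus tissue of C57BL/6J mice. The strain of the fibroblasts named below is not stated. No gene was altered and no compound tested in either pool. ORFTOCs were reaggregates of 3 inputs: thymic epithelial cells grown beforehand as organoids from fetal thymus, fetal thymus cells depleted of EpCAM+ epithelium, and wild-type mouse embryonic fibroblasts. FTOCs were intact fetal thymic lobes from the younger of the fetal stages used, the stage that also gave the EpCAM-depleted cells. In each pool 2 cultures were mixed before hashtagging, so a pool was 1 sample and no test between pools could be made. All intervals below are 95% intervals that cover counting error only (exact Poisson for counts, Clopper-Pearson for shares).

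After a productive TRB (β) chain has been made, immature thymocytes divide, gain CD4 and CD8, leave the cell cycle and open the TRA (α) locus for recombination. RAG1 and RAG2 cut the DNA, and terminal deoxynucleotidyl transferase (Dntt) adds bases at the joins. TRA recombination can be repeated in the same cell, each time with V and J segments farther apart, until a receptor is selected or the cell dies. Double-positive cells are the most abundant cells of a normal thymus and are small and poor in RNA. The study asked whether ORFTOCs hold the T-cell stages of FTOCs and how recombination is placed along them.

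Members made up 12.6% of assigned ORFTOC cells (95% interval 11.7 to 13.5; 659 of 5237) and 28.3% of assigned FTOC cells (27.0 to 29.7; 1165 of 4112). Among members and other cells with a Ptprc (CD45) or Cd3e UMI, the shares were 19.6% (18.3 to 21.0) in ORFTOC and 38.1% (36.4 to 39.9) in FTOC. ORFTOC gave 36.1% of members (33.9 to 38.4), against 49.1% (45.1 to 53.0) of the 642 cells that met the rule but held a UMI of a cycle gene, here called cycling counterparts. Both shares were lower than the 58.8% (57.3 to 60.2) that ORFTOC gave of all other Ptprc or Cd3e cells. With 1 sample per pool, these shares describe the libraries and not the culture types.

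The FTOC share of members rested on the hashtag limit. FTOC members carried a median of 396 counts of their own hashtag and 52 of the other, whereas ORFTOC members carried 1480 and 12. Of the FTOC members, 769 had between 10 and 20% of counts from the ORFTOC hashtag, and raising the limit from 80 to 90% left 396 FTOC members. ORFTOC then gave 60.4% of members (57.2 to 63.4). The higher limit also removed other FTOC cells and left 4918 assigned ORFTOC and 2529 assigned FTOC cells. Members were 12.3% of these ORFTOC cells and 15.7% of these FTOC cells. Leaving out all cells with an epithelial, mesenchymal or macrophage marker UMI instead gave 20.8 and 42.0%. Y-linked transcripts (Eif2s3y, Ddx3y, Uty and Kdm5d summed), which came almost entirely from the ORFTOC pool, were near 0 in both hashtag bands. They gave 2 UMIs in the 396 FTOC members under 10% and 2 UMIs in the 769 from 10 to 20%, against 225 UMIs in the 603 ORFTOC members of at least 90%. A further 206 cells met the gene part of the rule but were assigned to no pool, of which 141 had 20 to 50% ORFTOC counts, with 2 Y-linked UMIs.

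Members were shallow. Their median was 1771 UMIs and 1102 genes per cell in ORFTOC and 1670 UMIs and 1054 genes in FTOC, against 7598 and 6520 UMIs for other Ptprc or Cd3e cells and 11534 and 6272 UMIs for the cycling counterparts. A minority was much deeper. In ORFTOC 80 members (12.1%) exceeded 5000 UMIs and held 43.5% of all member UMIs, and in FTOC 52 members (4.46%) did so and held 19.6%. More than 1 productive TRB chain was found in 17.5% (9.91 to 27.6) of the deep ORFTOC members and 11.5% (4.35 to 23.4) of the deep FTOC members, but in 1.38% (0.598 to 2.70) and 2.70% (1.83 to 3.83) of the rest. Since summed counts weight deep cells most, the levels that the comparisons rest on are also given without members over 5000 UMIs. Leaving these out raised the levels of Rag2, Dntt, Cd4 and Ccr9 more in ORFTOC than in FTOC.

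**Figure D1:**
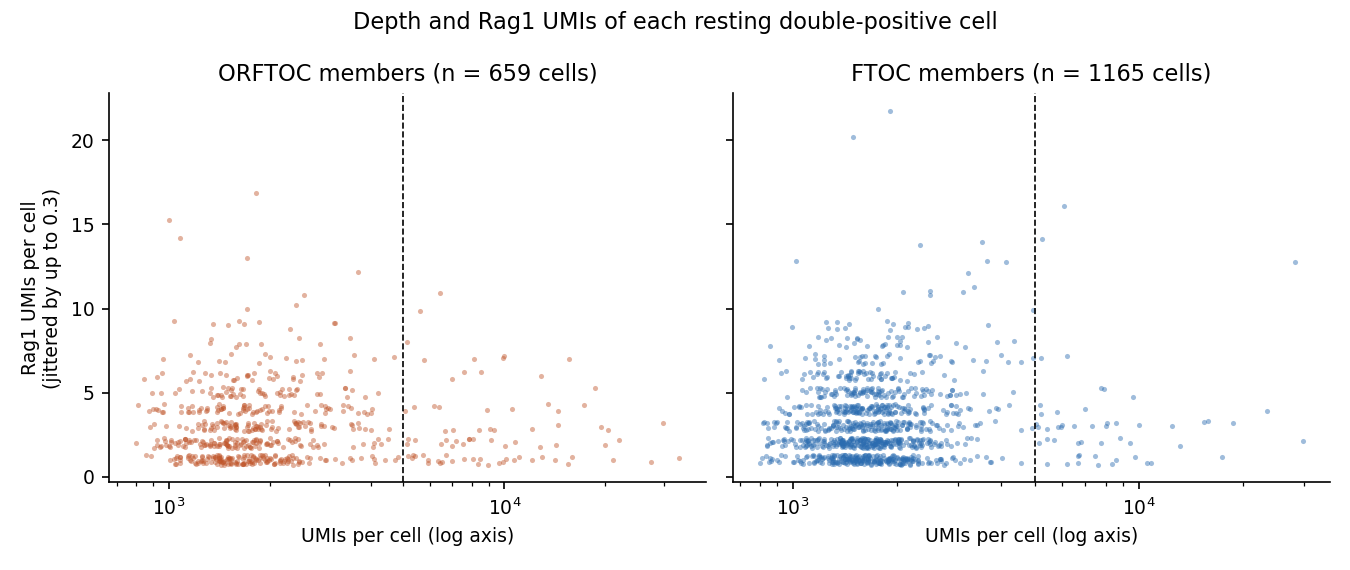
Rag1 UMIs per cell (vertical axis, jittered) against UMIs per cell (horizontal log axis) for every member, ORFTOC left and FTOC right; the dashed line marks 5000 UMIs. Most members lie between 1000 and 5000 UMIs, and 80 ORFTOC and 52 FTOC cells lie to the right of the line.

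Of the genes that set the rule, Rag1 had 1057 CPM (UMIs summed over cells and scaled to a common library total) in ORFTOC members and 1569 CPM in FTOC members. Cd8b1 (CD8β) had 1858 and 2810 CPM and Cd8a 1200 and 1710 CPM. These values chose the cells and are a description. At the Rag1 limit, 193 ORFTOC and 271 FTOC members held exactly 1 Rag1 UMI. They had 275 and 414 CPM of Cd4 and 482 and 893 CPM of Dntt, against 375 and 511 CPM of Cd4 and 795 and 1034 CPM of Dntt in members with more Rag1. The 450 ORFTOC and 487 FTOC cells just outside the limit (Cd8 UMIs, no Rag1, Epcam or cycle gene UMI) had 43.6 and 103 CPM of Cd4 and 60.4 and 176 CPM of Dntt. Cells just inside the Rag1 limit were closer to the other members than to the cells outside it. At the Cd8 limit in ORFTOC this depended on the gene. The 30 members with exactly 1 Cd8a or Cd8b1 UMI had 128 CPM of Dntt and 38.3 CPM of Rag2. The 57 cells with none had 29.3 and 8 CPM, so for Dntt and Rag2 the 30 members were closer to the cells outside. Cd4 went the other way. It had 307 CPM in the 30 members and 31.99 CPM in the 57 cells, against the 275 and 375 CPM of ORFTOC members split by Rag1. In FTOC the 19 members at the Cd8 limit had 922 CPM of Dntt and 115 CPM of Rag2. The 19 cells outside had 109 CPM of Dntt and no Rag2 UMI.

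Cd4, the coreceptor that the rule did not use, fitted the label in both pools. It had 343 CPM (317 to 370) in ORFTOC members and 489 CPM (462 to 518) in FTOC members, against 29.6 and 60.3 CPM in other Ptprc or Cd3e cells. At least 1 Cd4 UMI was found in 58.1% (54.2 to 61.9) of ORFTOC and 59.5% (56.6 to 62.3) of FTOC members. The share in Epcam+ cells without Ptprc and Cd3e UMIs, which should lack Cd4, was 1.90 and 2.36% at median depths of 12900 and 12079 UMIs. With cells thinned to 1000 UMIs (29 ORFTOC and 51 FTOC members were too shallow) the shares were 36.0 and 41.7% in members and 0.304 and 0.322% in the Epcam+ cells. The remaining members cannot be called CD4-negative at this depth.

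Against the other Ptprc or Cd3e cells, 296 of 2190 genes with at least 100 CPM in a group were 2-fold or more higher in members in both pools (13.5%), and 121 (5.53%) were 2-fold or more lower. Without members over 5000 UMIs these counts were 470 and 279 of 2319. The other cells include macrophages and innate lymphoid cells, so 2 closer groups are set beside them: the cycling counterparts and the Cd8 cells with 0 Rag1 UMIs. Of the same 2190 genes, 195 (8.9%) were higher and 128 (5.84%) lower than in the cycling counterparts, and 248 (11.3%) were higher and 44 (2.01%) lower than in the Cd8 cells without Rag1. Because members were chosen on the RNA of these same cells, the ratios describe the group and were not tested. The median log2 ratio of all genes tested was 0.14 in ORFTOC and 0.20 in FTOC.

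The recombination genes other than Rag1 were high in members. Rag2, the partner of RAG1, had 150 CPM (133 to 168) in ORFTOC members and 215 CPM (197 to 234) in FTOC members, and 16.0 and 26.3 CPM in other cells. Dntt had 695 CPM (658 to 733) and 1002 CPM (963 to 1042), against 119 and 189 CPM. The values of the other cells lay far below the members' intervals for both genes in both pools. Dntt was closest in the cycling counterparts, at 497 and 724 CPM, and Rag2 was lower there, at 65.2 and 102 CPM. Of the 15 genes of recombination and end joining, 5 were abundant enough to compare. Rag2, Dntt and Xrcc6 (Ku70, which holds broken ends) were higher in both pools and Hmgb2, a DNA-bending protein also tied to division, was lower. The list's median log2 ratio was 1.70 in ORFTOC and 1.96 in FTOC. Against the cycling counterparts 1 of the 5 was 2-fold or more higher in both pools and 1 was lower, at medians of -0.04 and 0.38.

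The receptor and its coreceptors were also higher than in other cells for 8 of 12 genes compared, with median log2 ratios of 1.44 and 1.40. Cd247, the CD3ζ signalling chain, had 508 and 710 CPM in members and 101 and 173 CPM in other cells. Trac, the α-chain constant region, had 136 and 166 CPM, against 58.7 and 72.6 CPM. The other 4 (Cd3d, Cd3g, Cd2 and Cd5) lay within 2-fold in both pools. Against the cycling counterparts 4 of the 12 were 2-fold or more higher in both pools and 0 were lower. Ptcra, the surrogate α chain that pairs with a new β chain, had 72.9 CPM (61.4 to 86.1) and 99.5 CPM (87.4 to 113). It stood at 92.0 and 99.7 CPM in the cycling counterparts, inside the FTOC members' interval and above that of the ORFTOC members. Without members over 5000 UMIs it had 104 CPM (85.9 to 125) in ORFTOC and 114 CPM (99.2 to 129) in FTOC members. In the Cd8 cells without Rag1, Ptcra was at 6.28 and 12.2 CPM.

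Genes of proximal TCR signalling were higher in members for 10 of 15 compared, with none lower, at median log2 ratios of 1.27 and 1.23. The highest ratios were those of Arpp21, an RNA-binding protein known from immature thymocytes, with 511 and 725 CPM in members and 71.8 and 109 CPM in other cells, and of Themis, which tunes TCR signals in double-positive cells, with 395 and 551 CPM against 64.8 and 104 CPM. Lck, the kinase bound to CD4 and CD8, had 1068 and 1487 CPM against 378 and 502 CPM. Zap70, which docks on the phosphorylated receptor, was within 2-fold, at 164 and 189 CPM against 112 and 144 CPM. Against the cycling counterparts 6 of the 15 were 2-fold or more higher in both pools and 0 were lower.

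Of 14 transcription factors of double-positive cells, 10 were higher in both pools and none lower, at median log2 ratios of 1.47 and 1.52. Myb, needed for the survival of double-positive cells, had 243 CPM (221 to 266) and 361 CPM (338 to 386), against 52.2 and 80.4 CPM in other cells and 44.3 and 87.1 CPM in Cd8 cells without Rag1. Satb1, a chromatin organiser, had 1080.1 CPM (1034 to 1128) and 1613 CPM (1563 to 1664), against 249 and 374 CPM. Of the 14, 9 were 2-fold or more higher than in the Cd8 cells without Rag1 in both pools. Against the cycling counterparts only 1 of the 14 was 2-fold or more higher in both pools and 0 were lower, at median log2 ratios of 0.59 and 0.78. Myb lay within 2-fold, at 163 and 224 CPM there.

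Of the survival genes, Bcl2l1 (Bcl-xL) had 96.4 CPM (83.0 to 111) and 140 CPM (126 to 156) against 27.0 and 29.0 CPM (142 and 161 CPM in members without the deep cells), and was the only one of 5 compared that passed 2-fold in both pools. Ccr9, the receptor for the thymic chemokine CCL25, had 533 CPM (500 to 566) and 822 CPM (786 to 858) against 118 and 211 CPM. Cxcr6, a receptor of innate-like and effector cells, was lower by log2 values of -1.01 and -2.71.

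Cd69, which appears on cells that receive a selecting signal, had 51.6 CPM (41.9 to 62.8) in ORFTOC members and 31.9 CPM (25.2 to 39.9) in FTOC members, against 109 and 93.5 CPM in Cd8 cells without Rag1. Ccr7, which guides selected cells to the medulla, had 57.3 CPM (47.1 to 69.1) and 37.7 CPM (30.4 to 46.2) against 193 and 211 CPM. Without members over 5000 UMIs, Cd69 stood at 19.4 CPM (12 to 29.6) and 26.0 CPM (19.3 to 34.1), intervals that both include the 23.9 CPM of the free RNA in barcodes with at most 100 UMIs. Ccr7 stood at 18.4 CPM (11.3 to 28.5) in ORFTOC, under its free-RNA level of 29.2 CPM, and at 29.5 CPM (22.4 to 38.2) in FTOC, which includes it. At these levels neither gene can be told from free RNA. Cd69 was under the 100 CPM needed for the list counts. Of 8 other selection genes compared with other Ptprc or Cd3e cells, 1 was 2-fold or more higher in both pools and 0 were lower, at median log2 ratios of -0.26 and -1.03. The 1 was Socs1, an inhibitor of cytokine signals, with log2 ratios of 1.91 and 2.11. None of 7 genes of maturation and egress was higher, and Ly6c2 was lower.

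Cell-cycle genes outside the rule were lower for 17 of 22 compared, at median log2 ratios of -2.03 and -2.31. The rule required 0 UMIs of 3 other cycle genes, so this list is not independent of it. Rrm2, a subunit of ribonucleotide reductase, had 6.25 and 6.55 CPM against 165 and 189 CPM. Ccnd3 (cyclin D3) was the single cycle gene that was higher, at log2 ratios of 1.82 and 1.90, and it lay within 2-fold of the cycling counterparts (0.29 and 0.48). Of 5 genes of quiescence, Cdkn1b (p27), Btg1 and Slfn2 were higher in both pools. Of 11 genes of growth and metabolism, Myc, Nop58 and Fbl were lower and Txnip, which limits glucose uptake, was higher, at log2 ratios of 1.86 and 2.01. The only early-stage (double-negative) gene compared, Trdc, lay at -0.94 and -2.22.

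**Figure D2:**
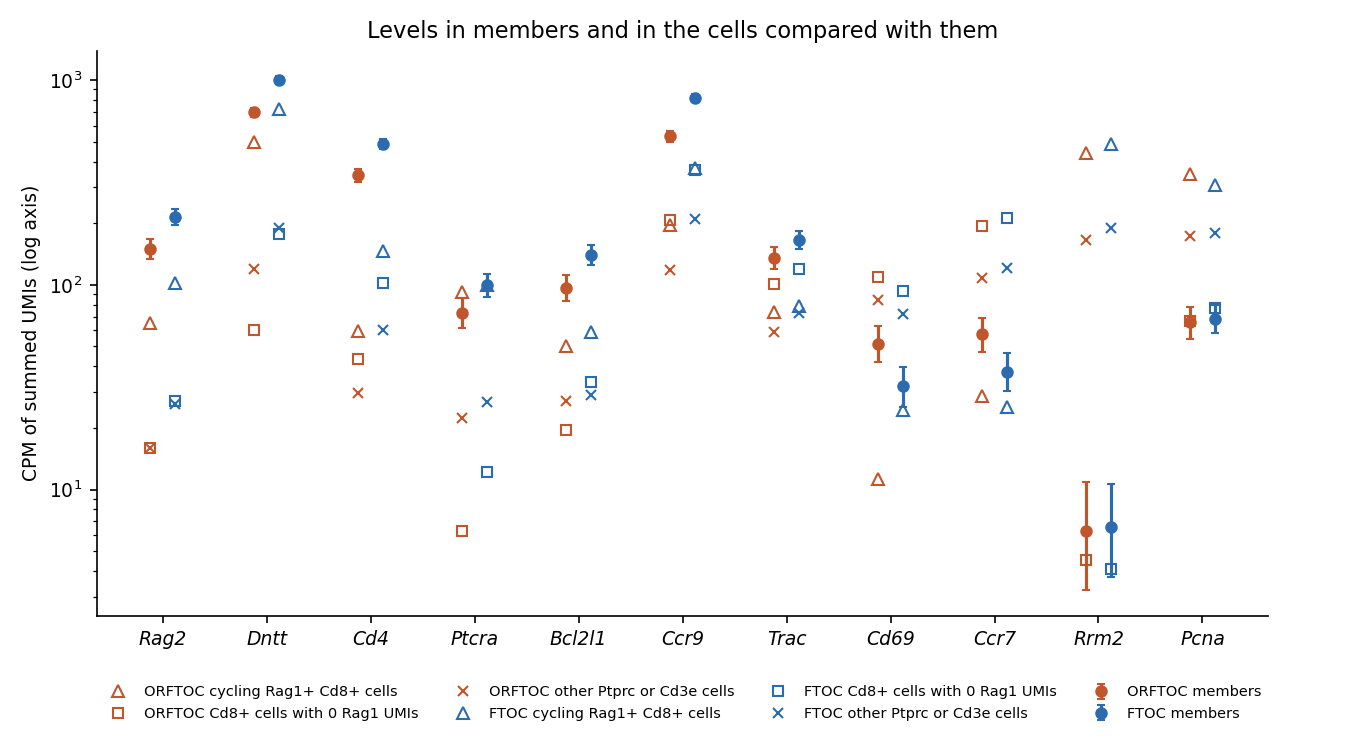
Level of 11 genes in CPM of summed UMIs (vertical log axis) for members (filled circles with exact 95% Poisson intervals) and, as single values, for cycling counterparts (triangles), Cd8 cells with 0 Rag1 UMIs (squares) and other Ptprc or Cd3e cells (crosses), by pool. Rag2, Cd4, Bcl2l1 and Ccr9 are highest in members in both pools, Ptcra is about level with the cycling counterparts in FTOC, and Ccr7 is highest in Cd8 cells without Rag1.

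The 10 highest ratios, ranked by the smaller of the pools, were those of Gm15340, Gm44175, Spo11, 1810059H22Rik, Tdrd5, Tctex1d1, Chrna9, P2rx1, Wdr78 and Plxdc1. Gm15340 had 182 CPM (163 to 202) in ORFTOC members and 222 CPM (204 to 242) in FTOC members, against 9.20 and 14.8 CPM in other cells. Spo11, which makes the DNA breaks of meiosis, had 82.8 CPM (70.5 to 96.8) and 104 CPM (91.2 to 117) against 4.83 and 9.35 CPM. Tdrd5, known from germ cells, had 60.4 and 119 CPM against 4.26 and 11.4 CPM, and Chrna9, an acetylcholine receptor subunit, 158 and 196 CPM against 9.56 and 20.5 CPM. Without the deep cells the log2 ratios of these 10 in ORFTOC lay between 4.07 (P2rx1) and 4.99 (Gm15340), and Gm15340 had 292 CPM in ORFTOC and 264 CPM in FTOC members. All 10 were also lower in the cycling counterparts, where Spo11 stood at 7.87 and 21.8 CPM and Chrna9 at 27.8 and 62.5 CPM. The 10 lowest were Nusap1, Rrm2, Pclaf, Ccna2, Spc24, Ube2c, Tpx2, Birc5, Krt17 and Cdca8, of which all but the keratin Krt17 are genes of division. The Krt17 ratios of -3.55 and -4.44 became 1.79 and 1.67 when the compared cells were required to lack Epcam.

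Markers of other cell types were found in many members, most often at low counts. At least 1 UMI of an epithelial marker was held by 282 ORFTOC and 429 FTOC members, of an innate lymphoid or killer marker by 221 and 338, and of a macrophage or dendritic marker by 145 and 180. Macrophage and mesenchymal UMIs were concentrated in few cells. UMIs of 10 macrophage and dendritic markers summed to 3575 CPM in ORFTOC and 1690.5 CPM in FTOC members, and 96.2 and 94.2% of them lay in 16 and 10 cells that each held at least 20. Mesenchymal markers (8 genes) summed to 1422 and 61.9 CPM, with 96.7% of the ORFTOC UMIs in 4 cells, all over 5000 UMIs. Without members over 5000 UMIs these sums were 342 and 156 CPM (macrophage) and 62.7 and 75.4 CPM (mesenchymal). Epithelial markers (10 genes) were more spread, with 53.0% of UMIs in 13 ORFTOC cells and 4.75% in 1 FTOC cell that held at least 20, and summed to 559 and 242 CPM in all members and 800 and 283 CPM without the deep cells. Innate lymphoid and killer markers (12 genes) went from 580 and 421 CPM to 278 and 253 CPM when the deep cells were left out, and γδ T-cell markers (8 genes) from 222 and 109 CPM to 59.0 and 53.0 CPM. Of 7 genes of dissociation stress compared, Fosb and Jun were lower in members than in other cells and none was higher. Of the 6 B-cell markers Cd79a, Ms4a1 and Pax5 were at 0 in both pools, as were all 6 red-cell markers. In each pool 2 B-cell markers had UMIs, held by 24 ORFTOC and 55 FTOC members. The B-cell list summed to 14.6 and 25.4 CPM in members, against 9.71 and 12.9 CPM in other cells.

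Between pools, 73 of 1964 genes (3.72%) were 2-fold or more higher in ORFTOC members and 5 (0.255%) were lower. The 8 highest were Bgn, Ccl19, Spp1, Sparc, Col3a1, Col1a1, Igfbp7 and Col1a2, mostly matrix genes of fibroblasts. Bgn had 166 CPM in ORFTOC and 2.05 CPM in FTOC members. Without members over 5000 UMIs it had 8.30 and 2.55 CPM, Col3a1 reversed from a log2 ratio of 4.54 to -1.73, and Col1a1 from 4.47 to -0.81. In that setting 10 of 1998 genes (0.501%) were higher in ORFTOC and 0 were lower (0%). These ratios were thus not as large without the deep cells, which hold most of the mesenchymal UMIs of ORFTOC members. In FTOC 43.7% of the mesenchymal UMIs lay in 2 cells, 0 of them over 5000 UMIs. With equal weight per cell, 15 genes were higher and 0 lower. Of 6 genes of dissociation stress compared between pools, 4 were 2-fold or more higher in ORFTOC members, at a median log2 ratio of 1.60, and without the deep cells 1 of 4 (Fos) was so, at a median of 0.46. The part of sample handling in the pool differences was not tested.

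**Figure D3:**
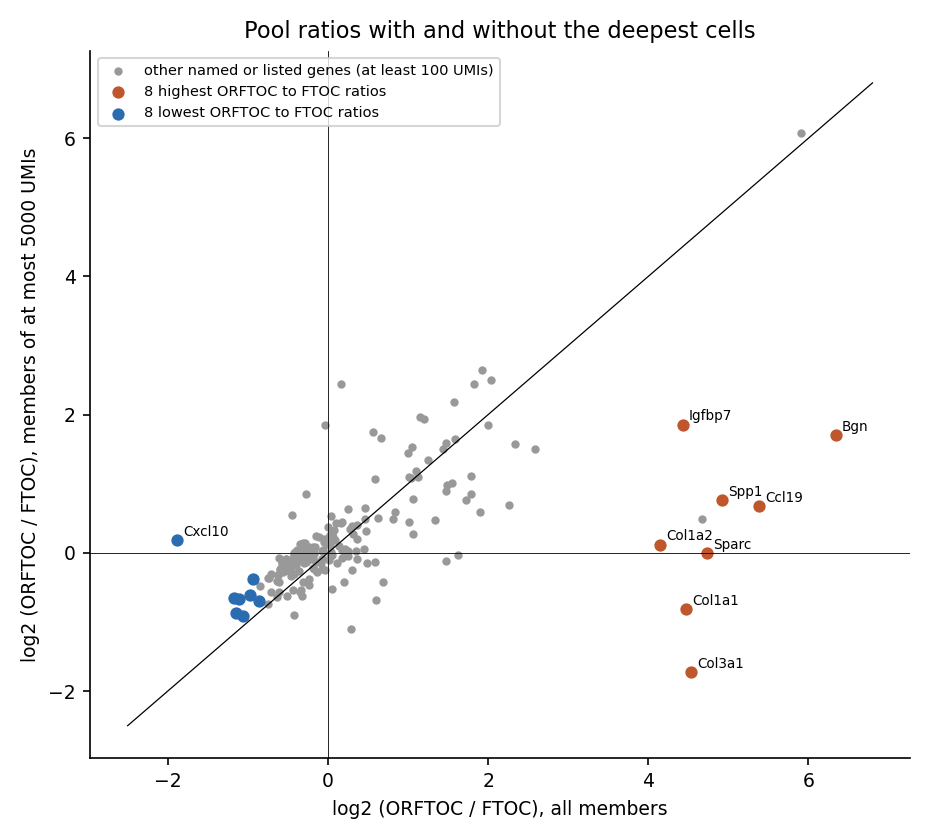
Log2 ratio of ORFTOC over FTOC members in CPM with all members (horizontal axis) and with members of at most 5000 UMIs (vertical axis), for genes named or listed; the line marks equal ratios. The 8 genes with the highest ratios (red) fall far below the line, and the 8 with the lowest (blue: Cxcl10, Trbv29, Trbv1, Trbv2, Xist, Tdrd5, Trbv12-2 and Il17ra) lie near it except Cxcl10.

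Levels of Rag2, Dntt and Cd4 differed little between pools once the deep cells were left out. Rag2 had 233 CPM (205 to 264) in ORFTOC and 256 CPM (234 to 280) in FTOC, Dntt 1095 CPM (1033 to 1159) and 1166 CPM (1118 to 1214), and Cd4 523 CPM (481 to 568) and 581 CPM (548 to 616). With all members their log2 ratios lay between -0.51 and -0.53. Without the deep cells they lay between -0.09 and -0.15, and the intervals of the pools overlapped for each of these 3 genes. Ccr9 stayed apart, at 759 CPM (708 to 813) in ORFTOC and 945 CPM (903 to 989) in FTOC. Small differences leaned 1 way in several lists. Without the deep cells ORFTOC was below FTOC for 5 of 5 quiescence genes and 6 of 7 recombination genes. It was so for 10 of 13 receptor genes, 11 of 15 transcription factors and 9 of 15 genes of proximal signalling. Among all genes it was so for 1072 of 1998.

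Among the 10 genes still higher in ORFTOC were Eif2s3y, Tbata, Krt18, Bpifa1, Apoe, Fos and Cd74. Tbata had 170 CPM (146 to 196) in ORFTOC and 30.0 CPM (22.9 to 38.8) in FTOC members of at most 5000 UMIs, and 2253 and 186 CPM in the Epcam+ cells of the same pools. Bpifa1 had 338 and 108 CPM, and 17084 and 2708 CPM in the Epcam+ cells. The pools were ordered alike in members and in epithelium for both genes, and the part of epithelial RNA in the members' values was not tested. Eif2s3y is Y-linked and had 0 UMIs in FTOC members, while Xist had 331 CPM (306 to 358) in ORFTOC and 688 CPM (656 to 722) in FTOC members, so the sex of the donor embryos and the culture type cannot be told apart. Interferon-response genes, a list written after such genes had been noticed, had 0 of 11 genes 2-fold lower or higher in ORFTOC without the deep cells. The log2 ratio was below 0 for 10 of the 11, with a median of -0.52, and for 1072 of all 1998 genes, with a median of -0.02. Igtp, an interferon-induced GTPase, had 125 CPM (105 to 148) in ORFTOC and 186 CPM (167 to 206) in FTOC.

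TCR chains were read from a library of the same cells. Its productive contigs came from 4649 barcodes, of which 4119 were also cells assigned to a pool in the gene expression library and 1567 were members. Exactly 1 productive TRB chain was found in 79.4% (76.1 to 82.4) of ORFTOC and 83.3% (81.0 to 85.4) of FTOC members, and in 0.758 and 0.43% of the Epcam+ cells. A TRB chain with 1 or 2 productive TRA chains was found in 28.8% (25.4 to 32.5) of ORFTOC and 28.3% (25.8 to 31.0) of FTOC members. The share was 13.3% (9.78 to 17.6) and 20.5% (16.2 to 25.3) in the cycling counterparts and 42.9% (38.3 to 47.6) and 45.6% (41.1 to 50.1) in Cd8 cells without Rag1. Members lay between these groups in both pools, with no overlap of intervals. Both of these groups were deeper than members, the cycling counterparts with fewer paired chains and the Cd8 cells without Rag1 (median 5408 and 2578 UMIs) with more, and the part of depth in these shares was not tested.

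Many members carried a TRA contig that was not called productive. Whether such contigs were out of frame or incomplete was not tested. A TRA contig with a V and a J segment that was not productive, with no productive TRA beside it, was found in 17.3% (14.5 to 20.4) of ORFTOC and 25.4% (22.9 to 28.0) of FTOC members. Counting these, 50.5% (46.6 to 54.4) and 57.6% (54.7 to 60.5) of members had a joined TRA transcript. The Cd8 cells without Rag1 reached 52.4 and 59.8%, and 45.1 and 49.7% of them had a productive TRA contig, against 33.2 and 32.2% of members. The groups also differed in TRB. No productive TRB chain was found in 35.1 and 22.0% of the Cd8 cells without Rag1, against 17.3 and 13.6% of members. Contigs of TRD, whose locus lies within TRA and is removed by TRA joining, were found in 5 ORFTOC and 12 FTOC members (0.759 and 1.03%), against 12 and 20 cycling counterparts (3.81 and 6.12%).

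**Figure D4:**
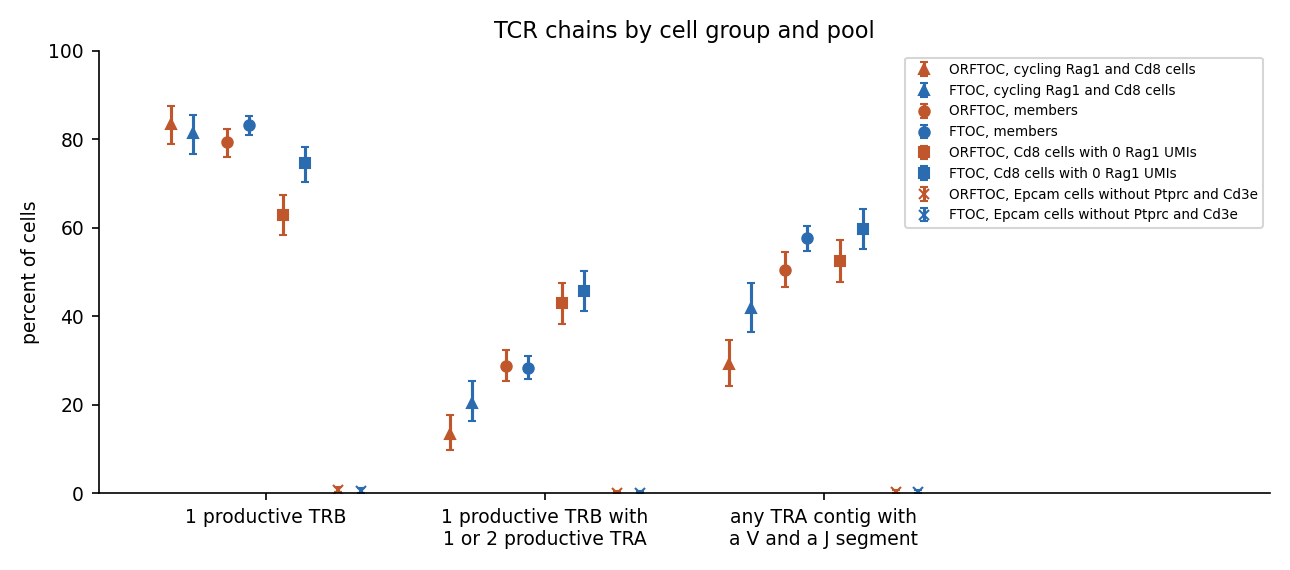
Percent of cells (vertical axis, 0 to 100) with 1 productive TRB chain, with 1 TRB and 1 or 2 productive TRA chains, and with any joined TRA contig, for cycling counterparts (triangles), members (circles), Cd8 cells with 0 Rag1 UMIs (squares) and Epcam+ cells (crosses) by pool, with Clopper-Pearson 95% intervals. Members sit between the cycling counterparts and the Cd8 cells without Rag1 for paired chains, and the Epcam+ cells are near 0.

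The median TRAJ segment of members lay farther into the locus than that of either neighbouring group with the cells as chosen. Under other cell filters the median was taken only for members and for all other Ptprc or Cd3e cells. TRAJ numbers fall from the end facing the V segments to the end facing the constant region. In mm10 the segments from Traj61 to Traj1 span chromosome 14, 54155005 to 54218842, and Trac lies at 54220521 to 54224198 (RefSeq). The median TRAJ number was 30 in ORFTOC members (quartiles 12 to 39.2, 232 chains) and 31 in FTOC members (16 to 42, 409 chains). It was 39 and 43 in the cycling counterparts, 32 and 34 in Cd8 cells without Rag1 and 33 and 37 in all other Ptprc or Cd3e cells. With at least 1000 genes per cell the members' medians were 33 in both pools, against 33 and 39 in the other Ptprc or Cd3e cells, so the ORFTOC difference from those cells was not kept. Segments numbered 20 or lower made up 36.6% (30.4 to 43.2) of ORFTOC and 28.9% (24.5 to 33.5) of FTOC members' chains. They made up 17.9% (9.61 to 29.2) and 16.7% (9.64 to 26.0) in the cycling counterparts, and 21.9% (16.6 to 27.9) and 18.2% (13.7 to 23.4) in Cd8 cells without Rag1. The intervals of members and Cd8 cells without Rag1 did not overlap in either pool, whereas those of members and cycling counterparts overlapped in FTOC. The V segments of members' chains lay at a median of 875 and 869 kb from Trac, against 676 kb in the cycling counterparts of both pools. Across chains, V and J starts were correlated in members (Spearman's rho -0.53 over 232 chains in ORFTOC and -0.45 over 409 in FTOC), with distal V joined to J near Trac. The correlation was not particular to members. It was -0.59 and -0.47 in the cycling counterparts and -0.44 and -0.47 in Cd8 cells without Rag1. These chains share the library and the set of V segments, some of which are near-identical copies.

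**Figure D5:**
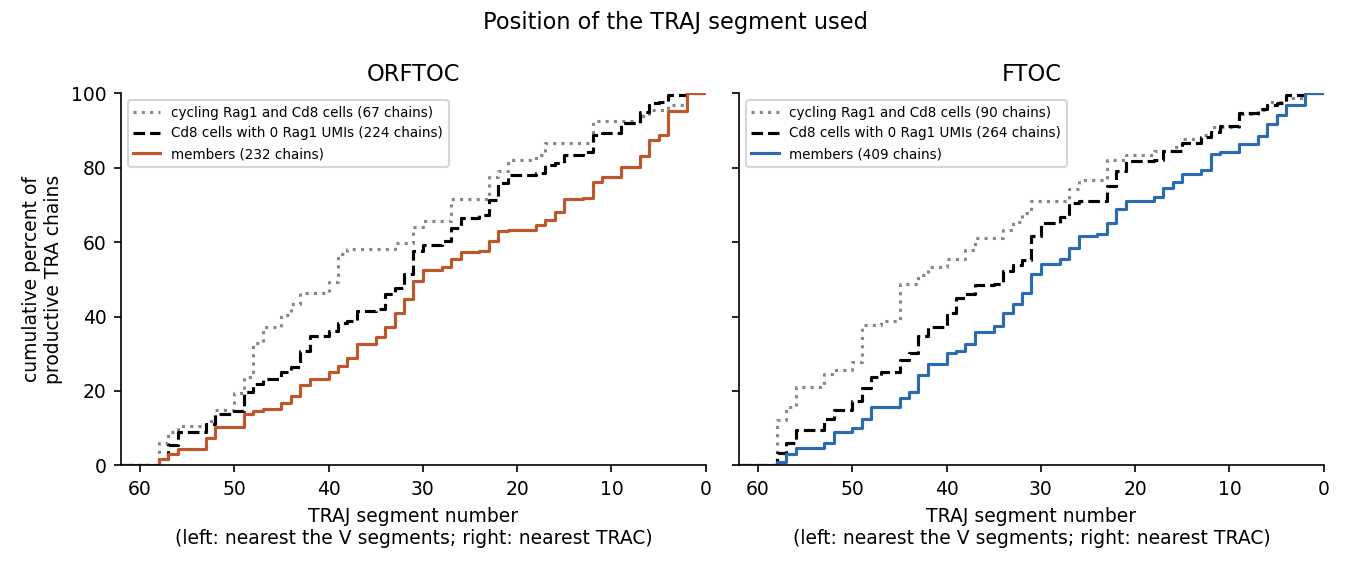
Cumulative percent of productive TRA chains (vertical axis) by TRAJ number (horizontal axis, falling from the V-facing end to the TRAC-facing end) in members (solid), Cd8 cells with 0 Rag1 UMIs (dashed) and cycling counterparts (dotted). The members' curve is lowest over most of the axis in both pools, and their median is 30 in ORFTOC and 31 in FTOC.

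Few genes separated members with a TRA chain from those with a TRB chain alone. Of 2125 genes, 1 (0.0471%) was 2-fold or more higher with TRB and TRA than with TRB alone in both pools and 2 (0.0941%) were lower. Without members over 5000 UMIs those counts were 1 (Trbv20, a V segment) and 0 of 2218. Rag1 had 1148 CPM with TRB alone and 1308 CPM with both chains in ORFTOC, and 1643 and 1492 CPM in FTOC, so its direction differed between pools. Without the deep cells it had 1618 CPM (1515 to 1727) and 1695 CPM (1558 to 1841) in ORFTOC and 1819 CPM (1740 to 1900) and 1778 CPM (1669 to 1893) in FTOC, with overlapping intervals. Trac was higher with both chains, at 193 CPM (155 to 238) against 126 CPM (104 to 152) in ORFTOC and 223 CPM (189 to 261) against 134 CPM (115 to 156) in FTOC. Without the deep cells the FTOC intervals stayed apart, whereas those of ORFTOC overlapped, at 219 CPM (172 to 275) against 171 CPM (139 to 209). Members were split by TRA transcripts read from the same cells, so the split is not independent of Trac and its ratio is a description. Cd5, whose level follows TCR signal strength, had 198 CPM (159 to 242) with both chains and 108 CPM (87.6 to 132) with TRB alone in ORFTOC. In FTOC it had 183 CPM (152 to 218) and 162 CPM (141 to 186), which overlapped. Without the deep cells the pools were closer, at 231 CPM (182 to 289) against 155 CPM (125 to 191) in ORFTOC and 222 CPM (184 to 265) against 165 CPM (142 to 191) in FTOC. The log2 ratio was then 0.57 (0.11 to 1.03) in ORFTOC and 0.43 (0.08 to 0.76) in FTOC. Genes of the response to selecting signals did not all move like Cd5. In the same setting Egr1 lay at -0.74 (-1.46 to -0.06) in ORFTOC and 0.80 (0.19 to 1.41) in FTOC. Nr4a1 lay at 0.60 (-0.98 to 2.14) and 1.44 (0.53 to 2.37), and Id3 at 0.29 (-0.05 to 0.62) and 0.13 (-0.10 to 0.36).

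The same TRB chain recurred in more members of ORFTOC than of FTOC. Calling chains identical when V segment, J segment and every junction base matched, 161 of 523 ORFTOC chains (30.8%, 26.9 to 34.9) were shared with another member, and 76 of 970 FTOC chains (7.84%, 6.22 to 9.71). The FTOC pool had more chains in which to find a repeat. Leaving out cells with any epithelial, mesenchymal or macrophage marker UMI gave 16.9 and 4.82%, and the FTOC share was 3.8% at the 90% hashtag limit, 4.8% with at least 1000 genes per cell and 5.16% with at least 2 Rag1 UMIs, each with fewer chains. ORFTOC stayed above FTOC in all of these. Chains of 85 ORFTOC members (16.3%, 13.2 to 19.7) and 21 FTOC members (2.16%, 1.34 to 3.29) also stood in a cycling counterpart of their pool. Between pools, chains of 8 ORFTOC and 10 FTOC members were found in a cell of the other pool.

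The junctions below show how cells with 1 TRB chain had made different TRA chains. They are the 3 TRB chains held by the most members of each pool, with the TRA chains of the same cells under the first of each pool, as the assembled contigs give them. Capitals mark bases that lie between the start shared with at least 20% of other junctions of the V gene and the end shared with at least 20% of those of the J gene.
ORFTOC TRBV5 TRBJ2-4, 7 members: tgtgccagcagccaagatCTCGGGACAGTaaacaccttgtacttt
TRA of 1 of them, TRAV17 TRAJ49: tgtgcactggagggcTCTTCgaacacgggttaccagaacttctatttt
TRA of 1 of them, TRAV6-7-DV9 TRAJ44: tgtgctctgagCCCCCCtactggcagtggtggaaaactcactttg
TRA of 1 of them, TRAV6N-6 TRAJ57: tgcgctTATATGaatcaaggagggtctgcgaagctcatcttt
ORFTOC TRBV17 TRBJ2-4, 4 members: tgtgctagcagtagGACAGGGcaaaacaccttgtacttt
ORFTOC TRBV20 TRBJ1-2, 4 members: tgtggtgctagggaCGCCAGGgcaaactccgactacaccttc
FTOC TRBV12-1 TRBJ1-3, 4 members: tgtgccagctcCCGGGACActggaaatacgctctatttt
TRA of 1 of them, TRAV6-7-DV9 TRAJ26: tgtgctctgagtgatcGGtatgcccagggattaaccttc
TRA of 1 of them, TRAV7-5 TRAJ17: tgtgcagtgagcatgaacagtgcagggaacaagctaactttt
FTOC TRBV12-2+TRBV13-2 TRBJ2-5, 3 members: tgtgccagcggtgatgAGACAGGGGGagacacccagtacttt
FTOC TRBV13-3 TRBJ1-6, 3 members: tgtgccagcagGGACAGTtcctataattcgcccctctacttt

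The TRBV5 junction stood in 7 ORFTOC members, 1 cycling counterpart and 1 Cd8 cell without Rag1, and the 3 members with a TRA chain held 3 different ones. In all, 23 pairs of ORFTOC members and 4 pairs of FTOC members shared a TRB chain and each had a TRA chain. The TRA chains differed in 20 of the 23 and in 4 of the 4. The 3 ORFTOC pairs with a shared TRA chain all came from the TRBV17 junction, whose 3 members with a TRA chain had the same TRAV16D-DV11 and TRAJ32 join. TRB junctions had a mean of 42.1 ± 4.59 bases (SD over 567 chains) in ORFTOC and 42.5 ± 4.60 bases (1042 chains) in FTOC members. The means were close to these in the cycling counterparts, at 41.9 ± 4.54 and 42.05 ± 4.63 bases. In Cd8 cells without Rag1 they were 40.3 ± 4.06 and 40.5 ± 4.54 bases.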

How the data were processed

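The authors aligned the reads to mm10 with Cell Ranger 6.1.2 and used Seurat 4.2.0, per their methods; the deposited gene matrix, whose header names another Cell Ranger version, held unfiltered UMI counts with the hashtag counts in its last rows. For each TCR contig the deposited lists held UMI counts. The 705161 barcodes held 103984163 UMIs, and 10245 passed the gene and mitochondrial limits. HTO_1 marked FTOC and HTO_2 marked ORFTOC. A cell under the 80% hashtag limit (896 cells) entered no pool, which removes mixtures between pools; doublets within a pool were kept, and their removal by the share of between-pool mixtures among 50 nearest neighbours is an alternative. UMIs were summed per pool and scaled to CPM; counts under 3 were set to 3 in ratios. Genes with at least 100 CPM in a compared group were counted past 2-fold, apart from the genes of the rule and of the compared cells. No test was made, since each pool was 1 sample. Productive TRB and TRA chains were counted as in the study. The members, gene lists and rules were chosen with earlier results of these data known: genes of each list with the largest ratios, 12 genes fixed by name, the 10 highest and lowest against other cells, the 8 highest and lowest between pools, and the 3 most shared TRB junctions per pool. The limit of 5000 UMIs, the interferon list and any gene named outside that rule were chosen after values had been seen. Such genes included Lck, Zap70, Cd5, Egr1, Nr4a1, Id3, Igtp, Tbata and the others still higher in ORFTOC. Scripts were tested on simulated counts. Intervals came from scipy 1.17.1, neighbours from scikit-learn 1.9.0, and sums from numpy 2.4.6. Some genes are not reported here.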

Additional observations from a re-analysis of the deposited data

How the results depend on the processing

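No paired analysis was possible because each pool was a single sample. Of 155 summary values recomputed under the alternatives, 101 stayed within the reported interval, the quartiles or 1.5 times the count, and 54 did not. Each left-out class of cells also changes which cells are members, and no other cause was tested. Shares of assigned cells that were members, for ORFTOC and FTOC, became 9.08 and 20.8% with at least 1000 genes, 8.90 and 21.7% with at least 2 Rag1 UMIs, 20.8 and 42.0% without cells holding an epithelial, mesenchymal or macrophage marker UMI, and 9.80 and 23.9% with cells thinned to 1000 UMIs. The FTOC share became 15.7% at the 90% hashtag limit, and the ORFTOC share 11.1% without members over 5000 UMIs. Shares of Ptprc or Cd3e cells became 14.5 and 29.7% with 1000 genes, 13.9 and 29.3% with 2 Rag1 UMIs, 22.4 and 42.9% without marker-holding cells, 23.2 and 41.5% with compared cells lacking Epcam, and 25.1 and 40.5% when thinned. The FTOC value was 22.2% at the 90% limit and the ORFTOC value 17.7% without deep members. In each of these settings the ORFTOC share of assigned cells stayed below that of FTOC. ORFTOC gave 60.4% of members at the 90% limit and 31.8% without marker-holding cells.

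When members were chosen again after thinning (508 and 963 cells), 37.2 and 42.0% held a Cd4 UMI. The thinned shares given earlier keep the members chosen at full depth. The TRB share was 82.4% (2 Rag1 UMIs) and 84.9% (no marker-holding cells) in ORFTOC and 79.8% (90% limit) in FTOC. With contigs of at least 3 UMIs the share with both chains was 20.6 and 18.3%. Shares of repeated TRB chains were 22.4 and 5.16% with 2 Rag1 UMIs and 16.9 and 4.82% without marker-holding cells, and in FTOC 4.80% with 1000 genes and 3.8% at the 90% limit, all with fewer chains in which to find a repeat.

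Genes higher in members than in other cells numbered 493 at a 50 CPM minimum and 470 without deep members. Lower genes numbered 188 without marker-holding cells, 188 with equal weight per cell, 229 at 50 CPM and 279 without deep members. Genes higher in ORFTOC members numbered 22 (90% limit), 40 (2 Rag1 UMIs), 14 (no marker-holding cells), 15 (equal weight), 136 (50 CPM) and 10 (no deep members). Genes lower numbered 3 (2 Rag1 UMIs), 2 (no marker-holding cells), 0 (equal weight), 10 (50 CPM) and 0 (no deep members). Of 639 values for named genes, 8 reversed. Krt17 went to 2.09 and 1.07 (log2, ORFTOC and FTOC) without marker-holding cells and to 1.79 and 1.67 with compared cells lacking Epcam. Between pools, Cxcl10 went to 1.47 without marker-holding cells and 0.19 without deep members, and Col3a1 to -1.73 and Col1a1 to -0.81 without deep members. The median depth under 2000 UMIs limits every share of cells with a UMI.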
